A study of Tupaia belangeri with 15 samples.

Results

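The DLGAP family was described across the cell classes of the tree shrew (TS) retina at 3 postnatal stages. Its members were taken by gene name: 6 of the 83605 features in the count matrices carry the symbol of DLGAP1, DLGAP2, DLGAP3 or DLGAP4. These are DLGAP1 (TSDBGID.7821), 2 numbered copies of it (DLGAP1li1, TSDBGID.7823, and DLGAP1li2, TSDBGID.27633), DLGAP2 (TSDBGID.14693), DLGAP3 (TSDBGID.2016) and DLGAP4 (TSDBGID.5801). DLGAP2, and with it the family, was chosen by its measured rise in rods between infancy and maturity, so its values in rods in that contrast are a description and carry no test. Nuclei came from frozen retinas of 15 TSs (Tupaia belangeri), small mammals with a cone-dominated retina, with 5 animals at each of the stages named Infancy, Mature and Senile, and no allele or treatment set the groups apart. Senile animals came from another institute than infant and mature ones, so origin and stage cannot be told apart in any comparison with the Senile group. Each retina gave 1 single-nucleus RNA sequencing library, in which each captured RNA molecule is counted once through its unique molecular identifier (UMI).

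DLGAP proteins, also known as SAPAP or GKAP, are scaffolds of the postsynaptic density beneath excitatory synapses. They bind the guanylate kinase domain of the DLG proteins, which hold glutamate receptors and channels at the membrane, and they bind SHANK proteins, which connect through HOMER to the actin cytoskeleton. In the retina, photoreceptors release glutamate from ribbon synapses onto bipolar and horizontal cells, bipolar cells release it onto amacrine and ganglion cells, and DLG proteins are found in photoreceptor terminals as well as at postsynaptic sites.

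The libraries held 4269 to 9856 barcodes and 13429873 to 58734300 UMIs each, with a median of 1461 to 5611 UMIs per nucleus, and any pair of libraries shared 4 to 30 barcodes. All 119765 nuclei that passed filtering, called doublets included, were clustered without the DLGAP features, and clusters were named from marker genes. The 7940 called doublets were then removed, which left 111825 nuclei. All nuclei of 11 named clusters with over 60% doublets were dropped as well. This gave 82544 nuclei in 9 classes, namely 14680 cones, 1010 rods, 22810 bipolar cells, 1398 horizontal cells, 28424 amacrine cells, 5557 ganglion cells, 6519 Müller cells and 1317 astrocytes, the remaining nuclei being microglia. Nuclei of clusters that stayed unnamed entered none of the class values. For levels, the raw UMIs of a feature were added up over all nuclei that a retina gave to a class and scaled to counts per 1000000 UMIs of that sum (CPM). The files give no gene lengths, so levels were tested between cell types and stages and not between genes. UMI totals and shares of the features are counts and do not rank their expression. Over the nuclei of the 9 classes the features held 127213 UMIs for DLGAP2, 37203 for DLGAP1li1, 28716 for DLGAP4, 22047 for DLGAP1li2, 15283 for DLGAP1 and 13333 for DLGAP3.

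In rods, DLGAP2 was low in infancy, with a mean level between those of bipolar and ganglion cells, and in mature and senile retinas its mean level was near that of horizontal cells. The 5 infant retinas had 225, 362, 146, 97.3 and 98.2 CPM of DLGAP2 in rods, which rests on 33, 45, 15, 26 and 47 UMIs. The 5 mature retinas had 2586, 2576, 2764, 1271 and 2150 CPM, from 353, 276, 1335, 304 and 540 UMIs. Senile retinas 2 to 5 had 2475, 1703, 2229 and 1995 CPM, from 165, 144, 199 and 277 UMIs. All mature and senile values lay above all infant values, and mature and senile values overlapped. Stage means were 186 ± 111 (SD, n = 5) in Infancy, 2269 ± 602 (SD, n = 5) in Mature and 2101 ± 330 (SD, n = 4) in Senile. By edgeR's fit the difference on the log2 scale was 3.59 for Mature minus Infancy, or 12.02-fold, and 3.49 for Senile minus Infancy, or 11.2-fold. Both share the infant retinas that chose the gene, and neither is tested; of all 3019 genes fitted in rods, 13 (0.431%) passed an adjusted p of 0.05 for Mature minus Infancy.

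**Figure D1:**
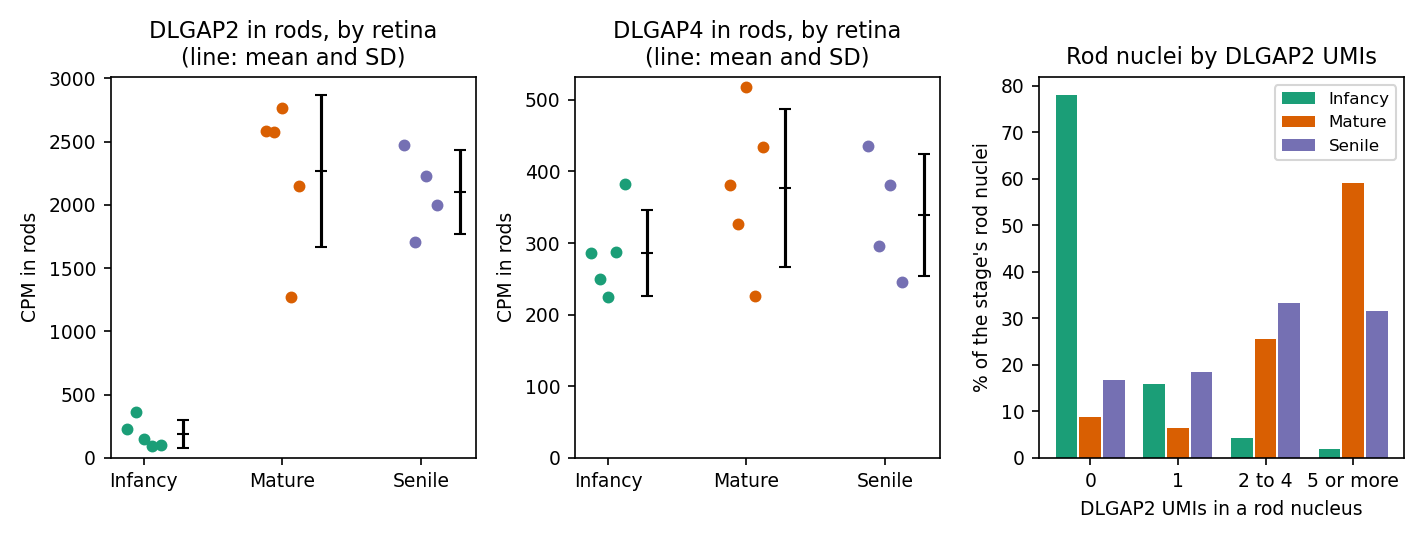
Left and middle, DLGAP2 and DLGAP4 in rods as CPM on linear axes from 0, each point 1 retina, with the stage mean and SD as a line (5, 5 and 4 retinas). Right, the percent of each stage's rod nuclei with 0, 1, 2 to 4, or 5 or more DLGAP2 UMIs; 78.0% of infant rod nuclei had 0 UMIs, and 59.1% of mature ones had 5 or more.

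From Mature to Senile the level of DLGAP2 in rods differed by -0.10 on the log2 scale (SE 0.32), with an interval of 2 SE on either side from -0.73 to 0.53. This contrast shares the mature retinas that chose the gene and is a description as well; 0.0994% of all genes passed in it. Of 409 infant rod nuclei 319 (78.0%) had no DLGAP2 UMI, against 34 of 384 mature (8.85%) and 36 of 216 senile rod nuclei (16.7%). A nucleus with 5 or more DLGAP2 UMIs was found 8 times in infancy, 227 times in maturity and 68 times in senility, and the median count per nucleus was 0, 6 and 3. Median depth per rod nucleus was 2039, 2930 and 1204 UMIs at the 3 stages. With each nucleus thinned to 1000 UMIs, the share of rod nuclei with a DLGAP2 UMI had a median over retinas of 9.52% (6.14 to 17.7%) in Infancy, 83.1% (61.1 to 90.7%) in Mature and 80.9% (55.9 to 91.1%) in Senile; 10, 10 and 82 shallower nuclei were left out. Cones, which have the lowest level of DLGAP2, gave thinned shares of 0.717%, 1.31% and 0.949% in the same libraries. In mature and senile retinas most rod nuclei that could be thinned thus carried DLGAP2, and the highest count in a single rod nucleus was 47.

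The rod class rests on few nuclei, with 39 to 122 in each retina used. Senile retina 1 held a single rod nucleus and was left out of all values for rods. The rod markers detected were PDE6A, PDE6B, NRL, NR2E3, GNAT1, SAG, ROM1 and ESRRB, while CNGA1 had 0 UMIs in all nuclei of every class. The summed level of these markers in rods was 7101 to 12016 CPM in infant, 8893 to 10386 CPM in mature and 5582 to 11628 CPM in senile retinas. Markers of the other classes with high DLGAP2 overlapped between infant and mature rods: the horizontal list (3 of 5 markers detected there) summed to 19.5 to 119 CPM in infant and 9.33 to 91.6 CPM in mature rods, the amacrine list (7 of 7) to 86.1 to 281 and 68.3 to 163 CPM, and the ganglion list (8 of 9) to 31.3 to 233 and 116 to 271 CPM. Senile rods had more of several lists, with 210 to 544 CPM of ganglion markers, 123 to 390 CPM of amacrine markers, 270 to 923 CPM of cone markers (6 of 7; 215 to 419 in infant rods) and a median of 277 CPM of Müller markers (5 of 6; 96.5 in infant rods), and their part in Senile minus Infancy was not tested. The pigment epithelium list (3 of 4) did differ, with 195 to 321 CPM in infant and 360 to 506 CPM in mature rods. An unnamed cluster of 1988 nuclei that scored best for this list held 15.9 CPM of DLGAP2. Another, of 693 nuclei with TTR of this list among its leading genes, held 139 CPM. The part of the list in the result was not tested. Libraries of version 6.1.2 of the counting software had 146 to 362 CPM of DLGAP2 in infant rods and 2576 to 2586 CPM in mature rods. Those of version 7.0.1 had 97.3 to 98.2 CPM and 1271 to 2764 CPM. These same retinas chose the gene, so the split lends the rise no support. The part of the version was not tested. Mature minus Infancy was lowest, at 3.19, with called doublets kept.

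DLGAP4, which had its highest class mean in rods, had 224 to 382 CPM in infant rods (mean 286 ± 60.0 (SD, n = 5)), 226 to 518 CPM in mature rods (377 ± 110.0 (SD, n = 5)) and 245 to 435 CPM in senile rods (339 ± 85.1 (SD, n = 4)). The groups overlapped. Its difference was 0.32 for Mature minus Infancy, given as a description, 0.15 for Senile minus Infancy (SE 0.23, edgeR adjusted p = 0.895) and -0.17 for Senile minus Mature (SE 0.23, edgeR adjusted p = 0.898). Thinned shares of rod nuclei with a DLGAP4 UMI had medians of 26.5%, 33.3% and 24.0%. The 3 DLGAP1 features and DLGAP3 had too few counts in rods to pass the filter and were not fitted there, with mean levels over all rods of 8.72, 13.5, 12.1 and 42.6 CPM.

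Partners of the family were fitted in the same rods. Of the 22 genes listed for the postsynaptic density, 7 passed the filter on low counts, and their differences for Mature minus Infancy ran from -0.12 to 0.35 with a median of 0.15, beside a median of -0.02 over all genes; these are descriptions. DLG2, a membrane scaffold that DLGAP proteins bind, had 5459.7 ± 699.5 (SD, n = 5), 5818 ± 435 (SD, n = 5) and 6033 ± 1039 (SD, n = 4) CPM at the 3 stages, and SHANK3, which binds DLGAP proteins from the other side, had 266, 305 and 252 CPM. HOMER2 stayed under the filter at 47.9, 34.6 and 54.5 CPM. Of the 20 genes listed for the photoreceptor terminal, 15 passed the filter, with differences from -0.65 to 0.51 and a median of -0.08. Among them CTBP2, whose product forms the ribbon, had 362, 359 and 323 CPM, and RIMS2, an active zone protein, had 4153, 3889 and 3517 CPM. Of 7 genes that lie beside DLGAP2 in the human genome, 1 passed the filter: FBXO25, with a difference of -0.17. For Mature minus Infancy the listed partners and neighbours that could be fitted in rods lay within -0.65 to 0.51. DLGAP2, at 3.59, was chosen by this contrast, so its distance from these genes is a description and supports nothing. For Senile minus Infancy the postsynaptic density genes ran from -0.70 to 0.13 and the terminal genes from -1.002 to 1.32. The 3.49 of DLGAP2 in that contrast shares the infant retinas that chose it. For Senile minus Mature the ranges were -0.95 to 0.18 and -0.67 to 0.81. No listed gene passed in rods by edgeR for Senile minus Infancy or Senile minus Mature, where 0.397% and 0.0994% of all genes passed.

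Across the classes DLGAP2 was highest in horizontal cells, the interneurons that are postsynaptic to photoreceptors, with a mean over all stages of 2255 CPM (730 to 3442 in 15 retinas). Amacrine cells had 904 CPM (776 to 1083) and ganglion cells 482 CPM (425 to 624). Horizontal cells were above amacrine cells of the same retina by 1.196 on the log2(CPM + 10) scale in 14 of 15 retinas (exact sign-flip permutation test, adjusted p = 0.00073), and ganglion cells were above microglia by 2.45 in 15 of 15 (adjusted p = 0.00042, exact). The rods had 1477 CPM over all 14 retinas, a mean that joins the infant level, below ganglion cells, to mature and senile levels next to those of horizontal cells. Levels under those of ganglion cells were 129 CPM in microglia, 45.9 in bipolar cells, 47.3 in astrocytes, 22.01 in Müller cells and 18.4 in cones, and none of these neighbours in the order differed beyond their spread (exact sign-flip permutation tests, adjusted p = 0.0991 to 0.658). The mean in horizontal cells was 122 times that in cones.

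**Figure D2:**
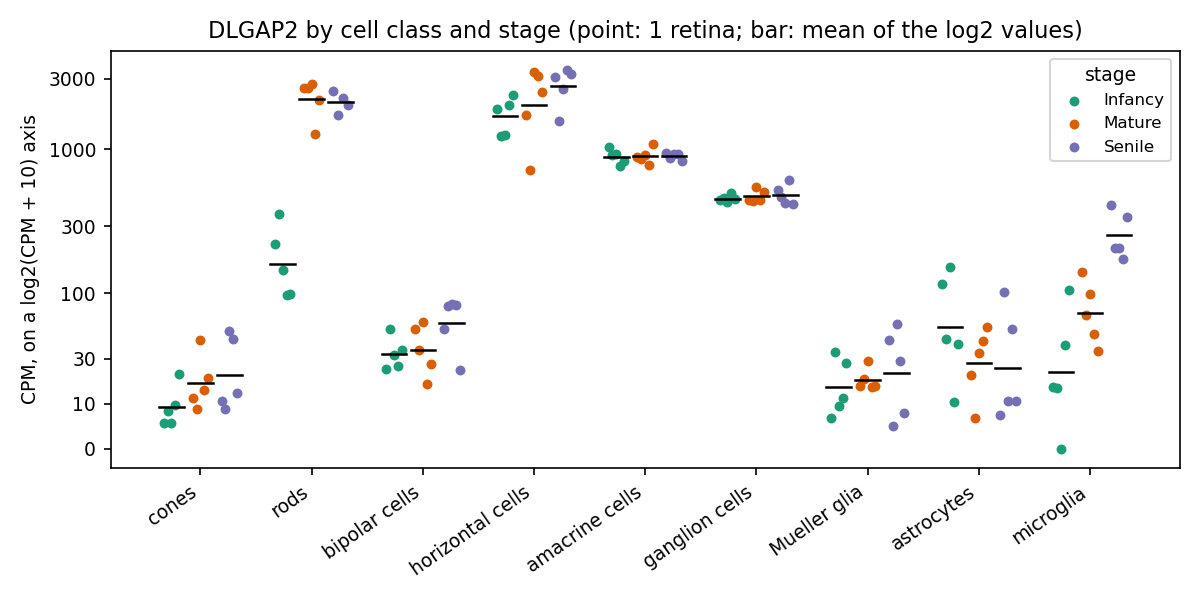
DLGAP2 in the 9 cell classes, as CPM on an axis spaced by log2(CPM + 10), with 1 point for each retina, colours for the stages and a bar at the mean of the log2 values. Horizontal, amacrine and ganglion cells lie between 425 and 3442 CPM at every stage, rods move from 97.3 to 362 CPM in infant retinas to 1271 to 2764 CPM in mature ones, and cones stay at or under 51.8 CPM.

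Amacrine and ganglion cells, both postsynaptic to bipolar cells, had DLGAP2 levels that overlapped between all stages. In amacrine cells the stage means were 899 ± 99.4, 907 ± 108 and 904 ± 45.4 CPM (SD, n = 5 each), and Senile minus Infancy was -0.11 with an interval of 2 SE from -0.33 to 0.10. In ganglion cells the means were 465 ± 27.4, 485 ± 47.4 and 497 ± 82.5 CPM (SD, n = 5 each), and the same difference was -0.02 (-0.23 to 0.20). These fitted differences use TMM scaling, under which their sign is opposite to that of the CPM means. Neither passed by edgeR, and the intervals leave room for a change of at most 0.33 on the log2 scale. Thinned shares of nuclei with a DLGAP2 UMI were equally close, with medians of 35.9%, 35.6% and 35.8% in amacrine and 32.0%, 31.8% and 31.4% in ganglion cells. In cones and bipolar cells, which have little DLGAP2, senile means were the highest without passing. Cones had 9.81 ± 6.92, 19.7 ± 13.8 and 25.7 ± 20.5 CPM (SD, n = 5 each) at the 3 stages, and Senile minus Infancy was 1.26 (0.12 to 2.40, edgeR adjusted p = 0.605). Bipolar cells had 34.4 ± 11.8, 38.8 ± 17.9 and 64.3 ± 25.9 CPM (SD, n = 5 each), and the same difference was 0.79 (0.05 to 1.52, edgeR adjusted p = 0.626). Both had an unadjusted p under 0.05, and whether these differences are unlike that in rods was not tested.

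Within the horizontal cells, DLGAP2 separated the H2 type from the H1 type. H1 clusters were named by LHX1 and MEGF11 and H2 clusters by ISL1, and DLGAP2 had no part in it. H2 cells had a mean of 4480 ± 1502 CPM (SD, n = 13) and H1 cells 838 ± 624 CPM (SD, n = 15). In all 13 retinas with at least 10 nuclei of both types the level was higher in H2, by 2.70 on average on the log2(CPM + 10) scale (exact sign-flip permutation test, adjusted p = 0.00098). Infant H2 cells had 4686, 3156, 3982, 3658 and 6048 CPM, mature retinas 1 to 4 had 6280, 1027, 5592 and 6447 CPM, and senile retinas 1, 2, 4 and 5 had 4393, 3518, 4181 and 5265 CPM. Mature retina 2, with 15 H2 nuclei, had the lowest of these values. In H1 cells, infant retinas had 300 to 610 CPM, mature ones 579 to 787 CPM and senile ones 1197, 420, 2443, 2108 and 758 CPM; stage was not tested within the types. The share of H2 among horizontal nuclei differed between retinas, from 19 of 133 nuclei in mature retina 1 to 73 of 143 in senile retina 4. The sum of the whole class pools both types, and the part of their mix in its level was not tested. For the whole class the stage means were 1737, 2262 and 2765 CPM, and Senile minus Infancy was 0.57 (SE 0.32, edgeR adjusted p = 0.709).

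DLGAP4 ran the other way between the horizontal types. It had 321 ± 52.7 CPM (SD, n = 15) in H1 and 192 ± 50.1 CPM (SD, n = 13) in H2 cells, and H2 was lower in 13 of 13 retinas, by -0.73 (exact sign-flip permutation test, adjusted p = 0.00098). DLGAP1 was lower in H2 as well, by -0.56 (adjusted p = 0.0033, exact), and so was DLGAP1li1, by -0.42 (adjusted p = 0.0195, exact). DLGAP1li2, at -0.18, and DLGAP3, at -0.30, did not pass. DLGAP2 was thus the only one of the 6 features that was higher in H2 cells by this test.

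**Figure D3:**
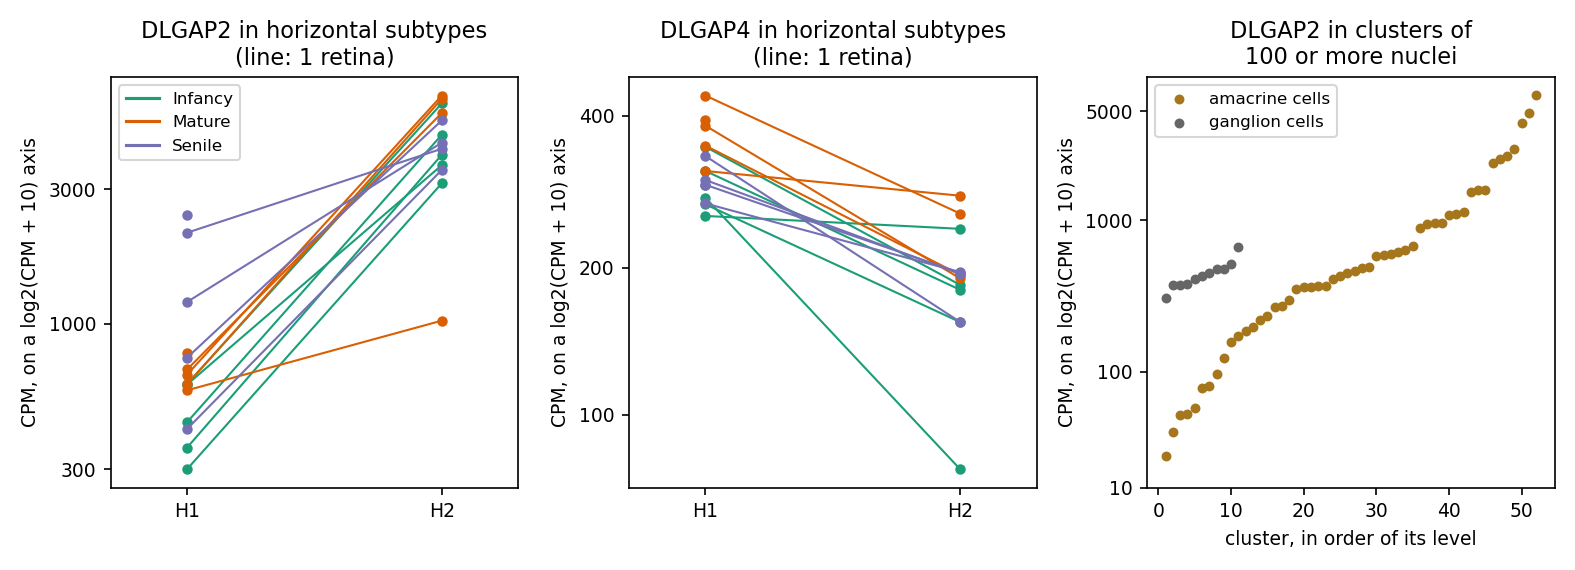
Left and middle, DLGAP2 and DLGAP4 in H1 and H2 horizontal cells, with a line for each of the 13 retinas that had both and CPM on axes spaced by log2(CPM + 10). Right, DLGAP2 in each amacrine (52) and ganglion (11) cluster of 100 or more nuclei, put in order of its level; amacrine clusters run from 21.8 to 6338 CPM and ganglion clusters from 315 to 671 CPM.

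Amacrine cells differed widely among themselves. GABAergic amacrine clusters, named by markers that include GAD1, which makes GABA, had 1049 ± 115 CPM of DLGAP2 (SD, n = 15), and glycinergic ones, named by the glycine transporter SLC6A9, had 521 ± 132 CPM (SD, n = 15). The difference was 1.03 in 15 of 15 retinas (exact sign-flip permutation test, adjusted p = 0.00073). All other members were higher in GABAergic cells by smaller steps: DLGAP1 by 0.28, DLGAP1li1 by 0.27, DLGAP1li2 by 0.17, DLGAP4 by 0.15 and DLGAP3 by 0.13 (adjusted p = 0.00073 to 0.0486, exact sign-flip permutation tests), where DLGAP3 no longer passed with log2(CPM + 1) (adjusted p = 0.0503). Single clusters spread far wider than these means. Among 52 amacrine clusters of 100 or more nuclei, DLGAP2 had a median of 464 CPM and reached 6338 CPM in a GABAergic cluster of 589 nuclei led by IL1RAPL2, EGFEM1 and CBLN2, with DLGAP2 itself among its 5 leading genes, where the 15 retinas with at least 10 of its nuclei ranged from 5549 to 7014 CPM. A glycinergic cluster of 572 nuclei led by LRRTM4, MAN2A1 and NTRK3 held 4832 CPM (2608 to 6787 over retinas), and a GABAergic cluster of 496 nuclei led by KCNQ5 and L3MBTL4 held 4177 CPM. At the other end, a glycinergic cluster of 353 nuclei led by CCBE1 and RIT2 held 21.8 CPM, about the level of cones, together with 265 CPM of DLGAP4. These clusters are described and not tested. Unnamed clusters that scored best for amacrine cells took no part in the tests of GABAergic and glycinergic cells. The largest, of 2460 nuclei led by MEGF11 and GABRA4, held 104 CPM of DLGAP2. The paper names MEGF11 with CHAT as markers in starburst amacrine cells, which it places among its GABAergic clusters. Whether this cluster is GABAergic was not tested. The 11 ganglion clusters lay between 315 and 671 CPM of DLGAP2, the highest led by SLC17A6, ELAVL2 and KCNK10.

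DLGAP4 had its highest class mean in rods, with 334 CPM (224 to 518), followed by horizontal cells with 269 CPM (216 to 403), amacrine cells with 150 CPM, ganglion cells with 123 CPM and bipolar cells with 69.6 CPM. Horizontal cells were above amacrine cells by 0.80, amacrine above ganglion cells by 0.27 and ganglion above bipolar cells by 0.74 on the log2(CPM + 10) scale, each in 15 of 15 retinas (exact sign-flip permutation tests, adjusted p = 0.00042). Bipolar cells were above Müller cells by 0.22 (adjusted p = 0.0115, exact). Rods were above horizontal cells by 0.26 in 10 of 14 retinas (adjusted p = 0.042, exact sign-flip permutation test), a difference that did not pass with at least 30 nuclei per class (adjusted p = 0.0762) or without certain single retinas (adjusted p up to 0.0840). Cones had the lowest level, with 29.3 CPM, so rods held 11.4 times the cone level of DLGAP4. Among bipolar cells, which take input from photoreceptors, ON cells were above OFF cells by 0.20 in 12 of 15 retinas (exact sign-flip permutation test, adjusted p = 0.0207). Unnamed clusters that scored best for bipolar cells took no part in this test or in the bipolar means. The largest, of 4261 nuclei led by COL19A1 and GRIK1li1, held 82.1 CPM of DLGAP4 and 106 CPM of DLGAP1li1. Those of 2534, 1732 and 797 nuclei held 76.6, 72.1 and 62.8 CPM of DLGAP4. Their DLGAP1li1 levels were 4.42, 4.88 and 9.45 CPM. The cluster of 1732 nuclei was led by ERBB4. The paper used GRIK1 to mark OFF cells and placed its ERBB4 subset among them. Whether these unnamed clusters are ON or OFF cells was not tested, so the ON and OFF difference covers named clusters only.

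**Figure D4:**
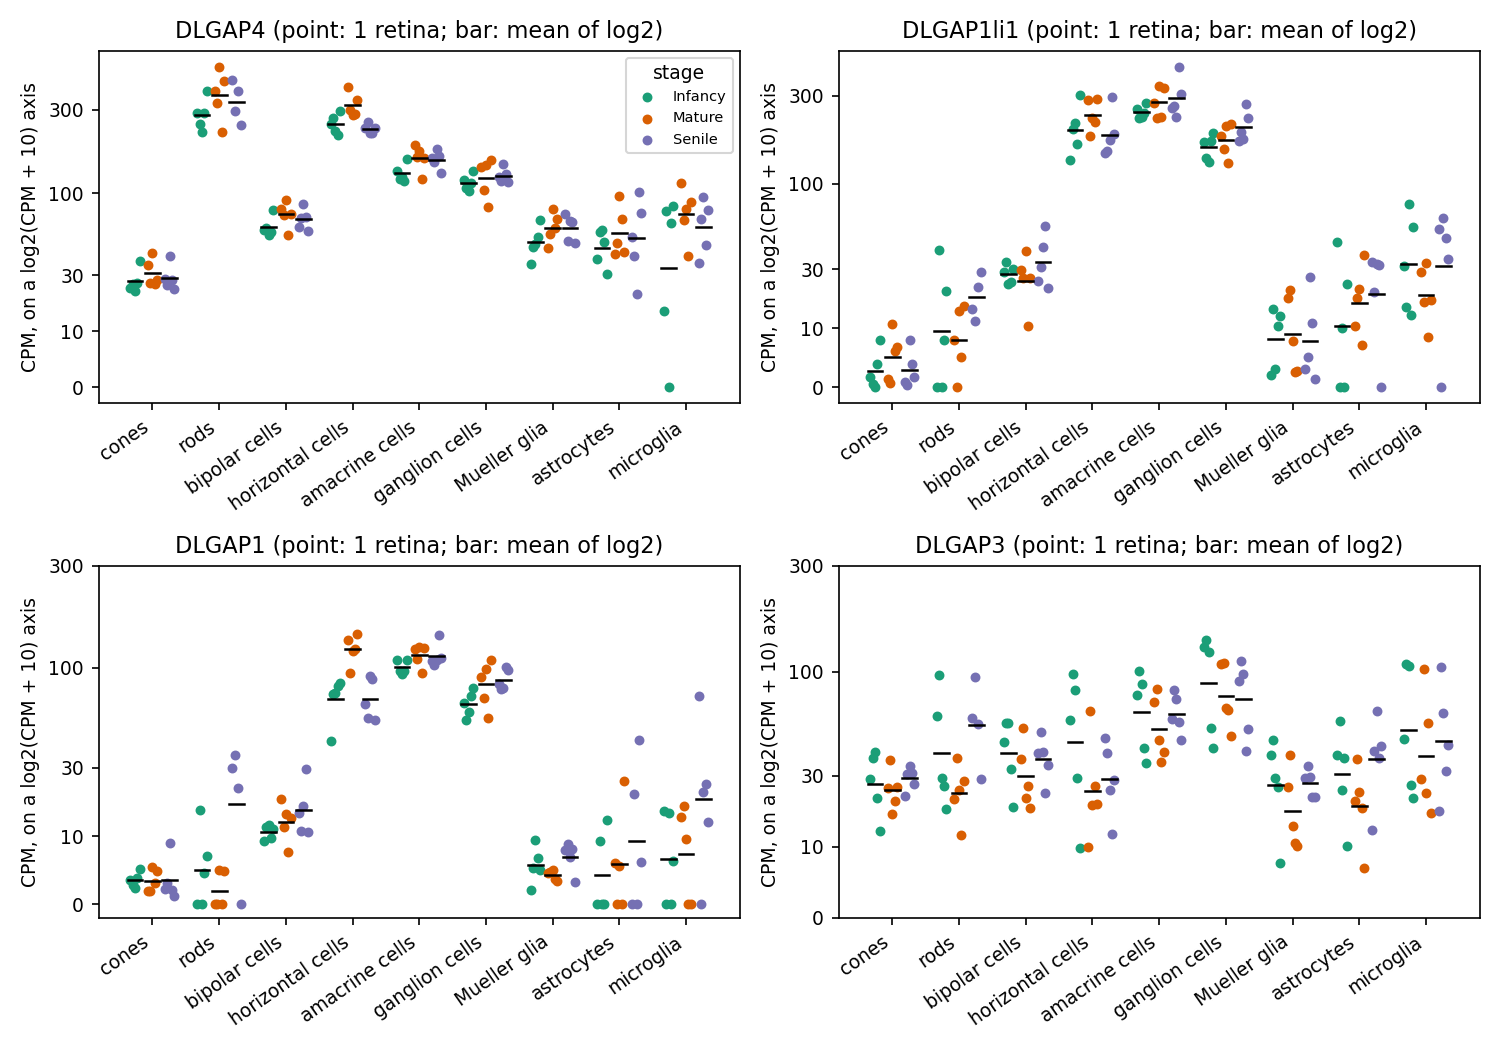
DLGAP4, DLGAP1li1, DLGAP1 and DLGAP3 in the 9 cell classes, as CPM on axes spaced by log2(CPM + 10), with 1 point for each retina and a bar at the mean of the log2 values of a stage. DLGAP4 is high in rods and horizontal cells, DLGAP1li1 and DLGAP1 in horizontal, amacrine and ganglion cells, and DLGAP3 lies at or under 140 CPM in every class.

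The 3 DLGAP1 features shared 1 pattern over the classes. DLGAP1 had 110 CPM in amacrine, 88.9 in horizontal, 80.0 in ganglion and 13.7 in bipolar cells; DLGAP1li1 had 275, 211, 182 and 30.0 CPM, and DLGAP1li2 had 159, 125, 106 and 16.1 CPM. Amacrine cells were above horizontal cells by 0.34, 0.38 and 0.38 (adjusted p = 0.0236, 0.0021 and 0.00098, exact sign-flip permutation tests). Ganglion cells were above the next class in the order, bipolar cells or microglia, by 1.93, 2.28 and 2.11 in 15 of 15 retinas (adjusted p = 0.00042, exact). All 3 were low in photoreceptors, with 1.94 to 3.21 CPM in cones and 8.72 to 13.5 CPM in rods. The copies may share reads, and how the counting divided them is not given in the sources used here: of their summed UMIs in amacrine cells, DLGAP1 took a median of 20.7%, DLGAP1li1 51.1% and DLGAP1li2 28.5% over 15 retinas, and shares in ganglion cells were 21.6%, 50.1% and 28.1%.

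DLGAP3 was spread most evenly. Ganglion cells, with 85.7 CPM, were above amacrine cells, with 62.7 CPM, by 0.36 in 14 of 15 retinas (exact sign-flip permutation test, adjusted p = 0.0024). The other 7 classes had means from 25.7 CPM in Müller cells to 53.7 CPM in microglia, and no neighbouring pair among them differed beyond its spread. DLGAP3 also followed the software version of the library. In ganglion cells the 7 libraries of version 6.1.2 had 91.0 to 140 CPM and the 8 of version 7.0.1 had 41.1 to 97.9 CPM, and in amacrine cells 59.2 to 101 and 35.1 to 74.3 CPM. Depth differed along with the version, with a median of 1461 to 3068 UMIs per nucleus in libraries of version 6.1.2 and 2268 to 5611 in those of 7.0.1. The version thus cannot be told apart from other differences between these library groups. Both versions occur at each stage, and the part of the version in these levels was not tested.

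Stage differences of the family were few outside rods. Of 110 tests of a member in a class between a pair of stages, with Mature minus Infancy in rods and all contrasts of DLGAP2 in rods left out, 1 passed an adjusted p of 0.05 by edgeR. At an unadjusted p under 0.05 there were 8, and DESeq2 passed 2. Of all genes, 1116 of 14207 in cones and 1167 of 14901 in bipolar cells had such an unadjusted p for Senile minus Infancy. In horizontal cells it was 319 to 391 of 4825 over the 3 contrasts. In microglia it was 376 of 1652 for Senile minus Infancy and 161 for Senile minus Mature. There DESeq2 called 90 genes up and 48 down for Senile minus Infancy, and 8 up and 11 down for Senile minus Mature. Of all genes fitted for Mature minus Infancy, the share called at an adjusted p of 0.05 by edgeR was 1.18% in cones, 0.698% in bipolar, 0.145% in horizontal, 0.333% in amacrine, 0.481% in ganglion and 0.617% in Müller cells, 0.165% in astrocytes and 0.303% in microglia. For Senile minus Infancy it was 1.48% in cones, 0.397% in rods, 1.07% in bipolar, 0.415% in horizontal, 0.883% in amacrine, 1.01% in ganglion and 1.08% in Müller cells, 0.192% in astrocytes and 4.36% in microglia, and for Senile minus Mature it was 0.0% in every class but rods. The 1 member call by edgeR was DLGAP2 in microglia for Senile minus Infancy. The infant retinas had 15.8, 15.6, 0, 39.9 and 106 CPM in microglia, from 1, 1, 0, 6 and 19 UMIs, the mature ones 143, 68.8, 99.3, 48.6 and 35.5 CPM, and the senile ones 420, 210, 212, 176 and 347 CPM, from 23, 6, 20, 22 and 79 UMIs. All senile values lay above all infant values. The difference was 2.65 on the log2 scale (SE 0.51), or 6.27-fold. It was 3.56 without infant retina 5, which holds 19 of the infant UMIs, and 2.39 to 2.81 without any other single retina. DLGAP2 passed the filter on low counts in microglia only through the senile retinas, of which 5 of 5 reached its cutoff against 0 of 5 infant and 1 of 5 mature ones. A gene kept in this way had to differ, so the filtered call supports nothing by itself and is given here as a description, and 72 of the 1652 genes fitted (4.36%) were called. With no filter, over 28074 genes, the difference was 2.48 (edgeR adjusted p = 2.21e-05), and 121 genes were called up and 64 down. That fit rests on the same retinas and counts and adds no separate support. Senile minus Mature was 1.84 (SE 0.48, edgeR adjusted p = 0.16).

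**Figure D5:**
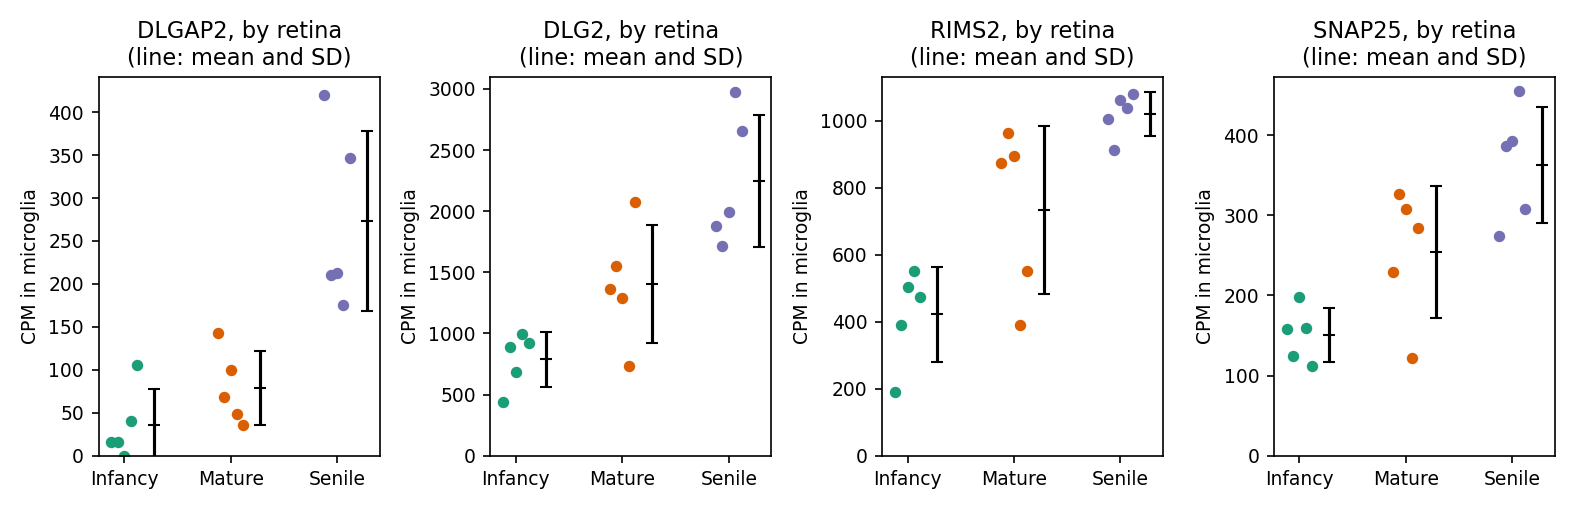
DLGAP2, DLG2, RIMS2 and SNAP25 in microglia, as CPM on linear axes from 0, with 1 point for each retina and the mean and SD of the 5 retinas of a stage as a line; the lower end of the infant line of DLGAP2 lies below the axis. For each of the 4 genes all senile retinas lie above all infant ones.

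The level in microglia is low, and 3 genes of the lists were called in the same direction. With called doublets kept, DLGAP2 for Senile minus Infancy was 1.34 (edgeR adjusted p = 0.326), and with nuclei gated one by one on markers it was 1.43 (edgeR adjusted p = 0.238), so the call rests on how nuclei were chosen. DLG2, the scaffold that binds DLGAP proteins, rose from 788 ± 225 to 2244 ± 541 CPM (SD, n = 5 each), by 1.52 (edgeR adjusted p = 0.0083). Of the photoreceptor terminal list, RIMS2 rose from 422 to 1019 CPM, by 1.28 (edgeR adjusted p = 0.0174), and SNAP25, a membrane fusion protein of neurons, from 150 to 363 CPM, by 1.31 (edgeR adjusted p = 0.0139). Of 4 postsynaptic density genes tested in microglia 1 rose, and of 8 terminal genes 2 rose, with medians of 0.52 and 1.04 beside 0.00 over all genes. All 3 lost the call with doublets kept or with single nuclei gated (edgeR adjusted p = 0.125 to 0.535). In the same microglia the cone markers (7 of 7 detected) summed to 122 to 319 CPM in infant and 219 to 871 CPM in senile retinas, the bipolar markers (6 of 7) to 60.9 to 1576 and 246 to 4410 CPM, the amacrine markers (7 of 7) to 93.1 to 655 and 140 to 754 CPM, the ganglion markers (9 of 9) to 27.8 to 375 and 175 to 467 CPM, the horizontal markers (4 of 5) to 0 to 31.6 and 18.3 to 70.1 CPM, and the microglial markers (8 of 8) to 4048 to 11176 and 2221 to 8732 CPM. From infant to senile retinas the cone median went from 168 to 557 CPM, the bipolar from 1015 to 1523 and the amacrine from 161 to 288. The horizontal median went from 15.6 to 24.0 CPM, the ganglion from 347 to 356 and the microglial from 8410 to 3419. The ranges of each of these lists overlapped between the stages. Lists of other glia also had higher medians in senile retinas. Müller markers summed to 274 to 685 CPM (median 300) in infant and 402 to 701 CPM (median 455) in senile retinas. Astrocyte markers summed to 15.8 to 203 CPM (median 76.2) and 120 to 219 CPM (median 145). The part of RNA from neurons or other glia in this difference was not tested. Thinned shares of microglia with a DLGAP2 UMI had medians of 1.70%, 3.33% and 8.06%, beside 0.717%, 1.31% and 0.949% in cones.

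In horizontal cells, DLGAP1 had higher values in mature retinas without passing the adjusted threshold. Infant retinas had 42.2, 74.2, 75.6, 81.1 and 84.6 CPM, mature ones 136, 94.3, 121, 123 and 145 CPM, and senile ones 66.6, 56.2, 90.9, 88.3 and 55.02 CPM. All mature values lay above those of both other stages. The differences were 0.75 for Mature minus Infancy (SE 0.21, edgeR adjusted p = 0.33) and -0.88 for Senile minus Mature (SE 0.21, edgeR adjusted p = 0.287), in contrasts where 0.145% and 0.0% of all genes were called. DLGAP4 in horizontal cells had 251, 321 and 235 CPM at the 3 stages, with -0.51 for Senile minus Mature (SE 0.15, edgeR adjusted p = 0.454). With the 3 DLGAP1 features summed, Senile minus Mature was -0.45 (edgeR adjusted p = 0.71). Marker sums of the horizontal cells moved between the same stages. Their own markers (5 of 5 detected) summed to 1878 to 2506 CPM in infant, 1740.3 to 2894 CPM in mature and 1517 to 1712 CPM in senile retinas, without overlap between the last pair. Bipolar markers (6 of 7) went from 137 to 943 CPM in mature to 377 to 1907 CPM in senile retinas and cone markers (7 of 7) from 53.0 to 247 to 128 to 471 CPM. Astrocyte markers went from 88.4 to 340 CPM (median 157) to 152 to 454 CPM (median 306). The part of these lists in the DLGAP1 and DLGAP4 values was not tested. The mix of types moved too: H2 cells, which have less DLGAP1 and DLGAP4 than H1 cells, made up 19 of 133, 15 of 68, 60 of 140, 27 of 75 and 8 of 42 horizontal nuclei in mature retinas and 34 of 81, 27 of 105, 9 of 27, 73 of 143 and 78 of 179 in senile ones, and its part was not tested either.

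The change between Infancy and Senile was also compared between classes of the same retinas, over cones, bipolar, amacrine, ganglion and Müller cells. None of 60 pairs of classes and features passed (exact permutation tests over retinas, lowest adjusted p = 0.70), and 1 had an unadjusted p under 0.05. With 5 against 5 retinas the smallest p possible is 0.00794, so a single difference among the 60 could reach an adjusted p of 0.476 at best, and 10 at that smallest p would be needed for any to pass. The differences between classes ran from -0.35 to 0.71 on the log2(CPM + 10) scale.

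Over all classes, the postsynaptic density list gave 1 gene that rose and 1 that fell in 339 tests, and the photoreceptor terminal list gave 2 that rose in 399 tests, the 3 in microglia included; no neighbour of DLGAP2 passed in 72 tests. Of the 4 calls, 3 lie in the contrast of microglia where 4.36% of all genes were called. The gene that fell was KALRN, a guanine nucleotide exchange factor of dendritic spines, in amacrine cells: 72.4 ± 6.21 CPM in infant and 57.1 ± 5.04 CPM in senile retinas (SD, n = 5 each), a difference of -0.46 (SE 0.10, edgeR adjusted p = 0.0434), where 0.883% of all genes were called. That call was lost with no filter on low counts (edgeR adjusted p = 0.283), with a replicate block (0.0788), with single nuclei gated (0.999) and without certain single retinas (up to 0.124).

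The genes whose levels were most like those of DLGAP2 over the 27 class-by-stage means were DLGAP4 (Pearson r = 0.90), CDH10, a type II cadherin (0.86), ADD2, the beta subunit of adducin, which caps actin (0.83), SYT14 of the synaptotagmin family (0.81) and RALGAPB, a subunit of a Ral GTPase activating complex (0.80), among 7778 genes that reached 50 CPM in at least 1 mean. Without rods, over 24 means, the values were 0.93, 0.92, 0.85, 0.96 and 0.83. The other members had r = 0.74 for DLGAP1, 0.72 for DLGAP1li1, 0.77 for DLGAP1li2 and 0.45 for DLGAP3 over all 27 means, and 0.94, 0.94, 0.95 and 0.54 without rods, where no DLGAP1 feature was below DLGAP4. The means come from the same 15 libraries, and r is given as a description.

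The matrices also hold 20 features named as antisense to a member, 7 for DLGAP1, 10 for DLGAP2 and 3 for DLGAP4. Whether the counting used strand is not given in the sources used here, so reads of a gene and of its antisense feature may not be separable. The 10 DLGAP2 antisense features together had 0 CPM in all 5 infant rod sums, a median of 16.7 CPM (0 to 37.3) in mature and 5.60 CPM (0 to 28.8) in senile rods. In horizontal cells their sum had medians of 12.7, 29.2 and 24.8 CPM, and it differed by software version, with 11.7 to 23.8 CPM in the 7 libraries of version 6.1.2 and 24.8 to 157 CPM in the 8 of version 7.0.1. In both classes the sum stayed below the DLGAP2 level of the same stage.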

How the data were processed

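Nuclei of 15 TS retinas were profiled on the 10x Genomics platform with 3′ chemistry. The authors deposited raw UMI counts per feature and nucleus for each library, aligned to the TS_3.0 genome and called as nuclei by Cell Ranger; the file headers name version 6.1.2 for 7 libraries and 7.0.1 for 8, and the submitters' processing notes name 5.0.1 and 7.0.1. Whether introns or strand entered the counts is not given in the sources used here.

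Kept nuclei had over 200 and under 6000 genes and a mitochondrial share of UMIs under 5%. Simulated doublets served to call doublets within each library (20 neighbours, 8 per 1000 nuclei for each 1000 nuclei), and 7940 of 119765 nuclei were called. All 119765 nuclei were clustered on 2000 variable genes with the DLGAP features left out (30 components, Leiden resolution 3, leidenalg 0.10.2), and clusters of at least 20 nuclei were named from marker lists. Called doublets, and all nuclei of 11 named clusters with over 60% doublets, were removed after this step. The naming thresholds were set after the clusters were seen, and so was a rule that left 8 clusters unnamed because they shared at least 3 of 5 leading genes with a large cluster of another class. A marker gate on single nuclei gave the same class to 97.6% of 54781 nuclei that both named.

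UMIs were summed per retina and class where at least 10 nuclei were present. Stages were compared with edgeR 4.0.16 (TMM, filterByExpr, quasi-likelihood test, R 4.3.3), fitted over all genes of a class with Benjamini-Hochberg adjustment over them. Classes and subtypes of the same retinas were compared with two-sided exact sign-flip permutation tests of log2(CPM + 10) over 48 pairs of neighbouring classes and 24 subtype tests, adjusted within each family, and 18 and 11 of them passed. Effects were compared between classes with two-sided exact permutation tests over retinas. Pseudobulk totals per retina ran from 66661 to 483083 UMIs in rods, 28516 to 227835 in microglia and 2301994 to 11130713 in amacrine cells, and intervals on such sums cover counting error and the spread between retinas only. On simulated counts for rods (3019 genes, Mature minus Infancy), 42 of 100 genes changed 2-fold and 95 of 100 changed 4-fold were recovered. In microglia (1652 genes) it was 36 and 91, and in amacrine cells (18012 genes) 29 and 75. Of the unchanged genes, 13 of 2819 were called in rods, 6 of 1452 in microglia and 6 of 17812 in amacrine cells.

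The alternatives tried were DESeq2 1.42.0, no filter on low counts, the replicate number as a block, each retina left out, doublets kept, single nuclei gated, at least 30 nuclei, the software version in the model, summed copies and log2(CPM + 1). The text names all 6 DLGAP features, at most 5 list genes in each direction past the threshold in a class, and the 5 genes most like DLGAP2. Cluster leading genes, partners in rods and FBXO25 were named besides. Antisense features are counted by gene and not named one by one, with summed levels for those of DLGAP2 only. Intergenic features named after a member are not reported here. Members and lists were chosen with earlier results of these data known. The labels give neither sex nor exact age, and these were not modelled. Some marker genes are not reported here.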

Additional observations from a re-analysis of the deposited data

Results flagged for a closer look

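In 7 of 75 groups of a member, a class and a stage, 1 retina lay farther from the others than Dixon's limit at the 95% level allows; chance flags about 1 in 20 such groups. Senile retina 4 accounted for 4 of them: DLGAP1li1 in horizontal cells (295 CPM against 147 to 187 in the other 4), DLGAP1li2 in horizontal cells (182 against 104 to 114), DLGAP1 in amacrine cells (143 against 103 to 111) and DLGAP1li2 in amacrine cells (258 against 130 to 162). Infant retina 5 stood out for DLGAP1li2 in amacrine cells (193 CPM against 114 to 135) and for DLGAP4 in bipolar cells (79.3 against 55.6 to 62.0). Infant retina 1 was low for DLGAP1 in horizontal cells (42.2 CPM against 74.2 to 84.6). No group of DLGAP2 was among them, and the cause was not tested.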

How the results depend on the processing

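The difference of DLGAP2 in rods was between 3.19 and 3.78 for Mature minus Infancy and between 3.09 and 3.78 for Senile minus Infancy over the 8 other settings, and between 3.41 and 4.00 and between 3.29 and 3.89 with each retina left out. The highest values came without infant retina 2. The gene was chosen by its rise in these same retinas, so these ranges are a description and lend the rise no support. The number of member calls between stages was 1, with 2 when no filter on low counts was used, 2 by DESeq2, 0 with doublets kept and 0 with single nuclei gated, and 1 without any single retina; the added call was DLGAP2 in microglia for Senile minus Mature (1.76, adjusted p = 0.0251 with no filter, and 1.86, adjusted p = 0.0338 by DESeq2). The call rests on a gene that passed the filter through its senile retinas, so its recurrence says nothing about stability. For Senile minus Mature in microglia, 17 genes were called up and 18 down of 28074 with no filter. By DESeq2 it was 8 up and 11 down of 1652. The list genes gave 4 calls, 1 with doublets kept and 1 to 6 with a retina left out, namely 1 without infant retina 1 and 2 without senile retina 3. Neighbouring classes gave 18 calls, 28 with single nuclei gated and 15 to 19 with a retina left out; subtypes gave 11, and 10 to 12 with a retina left out. The comparison of effects between classes could hardly pass at this number of retinas, so its count of 0 says nothing about stability. Directions turned for DLGAP2 and DLGAP4 in rods, near 0, and for 3 called differences: DLGAP2 in rods for Senile minus Mature was 0.0222 with a replicate block and 0.0217 with single nuclei gated, DLGAP4 in rods for Senile minus Infancy was -0.0500 with no filter, and Müller cells minus cones, called at 0.22 for DLGAP1, 0.47 for DLGAP1li1 and 0.41 for DLGAP1li2, was -0.0314, -0.15 and -0.0589 with doublets kept; the cause was not tested. Retinas with the same number deviated together with r over 0.1 in 4 of 13 pairs in rods, 12 of 15 in cones, 13 of 15 in amacrine and 12 of 15 in Müller cells, beside 13 of 52, 20 of 60, 24 of 60 and 20 of 60 pairs of different number. Since not every pair was over 0.1, and no label gives the numbers a meaning, they were not taken to pair the samples. Version 6.1.2 covers numbers 1 and 2 at each stage, and number 3 in Infancy only. In amacrine cells infant retina 3 had r = -0.49 with mature retina 3 and 0.18 with senile retina 3, both of version 7.0.1. The cause was not tested. With the replicate block, 1 member call remained and the lists gave 3, since KALRN in amacrine cells had an adjusted p of 0.0788 by edgeR. Depth limits rods, astrocytes and microglia, where 4, 4 and 5 of the 6 members could not be fitted.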

Other observations

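Of the nuclei left without a class, a cluster of 360 led by SOX6, ADCYAP1 and BMP2, with markers of more than 1 class, held 3556 CPM of DLGAP2. Its best marker score was for amacrine cells. Other unnamed clusters that scored best for amacrine cells were lower. Those of 2460, 979, 583, 446 and 406 nuclei held 104, 47.7, 56.9, 200 and 184 CPM of DLGAP2. None of these clusters entered the amacrine values. A cluster of 2165 nuclei led by CNTN5, EBF3 and NKAIN2 held 404 CPM of DLGAP2 and 331 CPM of DLGAP1li1. It stayed unnamed because its best marker score was for the list of mural and connective cells. Over all nuclei that list had 2718 UMIs of PDGFRB, 323 of DCN, 174 of COL1A2 and 61 of COL1A1. Such a score does not settle the cell type of this cluster. In a cluster of 583 nuclei led by MAN2A1, ZNF385D and LAMP5, DLGAP4 had 226 CPM and DLGAP2 56.9 CPM.

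Among 5 cone clusters, DLGAP2 had 329 CPM in a cluster of 526 nuclei led by GNAT2, PDE6H and ARR3, where the retinas with at least 10 of its nuclei ranged from 0 to 1116 CPM, beside a median of 14.6 CPM over the clusters. Every other DLGAP feature was also highest in that cone cluster. DLGAP1 had 31.2 CPM there beside a median of 2.36, DLGAP1li1 48.4 beside 2.06, and DLGAP1li2 26.5 beside 1.48. DLGAP3 had 62.5 beside 32.2, and DLGAP4 45.3 beside 31.7. An amacrine cluster of 179 GABAergic nuclei led by NPY and SYT10 held the highest amacrine level of DLGAP4, 425 CPM. Ganglion clusters differed in DLGAP1: a cluster of 846 nuclei led by LAMA4, RUNX1 and PTCHD4 held 125 CPM of it and 294 CPM of DLGAP1li1, and a cluster of 735 nuclei led by SLC17A6, ELAVL2 and KCNK10 held 51.4 and 109 CPM. These clusters are described and not tested.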
